A study of Mus musculus with 14 samples.

Results

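Chromatin accessibility was followed at 7 genes of cyclic-AMP phosphodiesterases, Pde4a, Pde4b, Pde4d, Pde3b, Pde7a, Pde7b and Pde8a, in long-term haematopoietic stem cells (LT-HSCs) of mice. The genes were picked because a peak near Pde4b gained strongly in Rhosin-treated aged cells against young ones. A consensus peak was given to the protein-coding gene (RefSeq, mm10) whose span was nearest, within 50 kb, which gave 104 of the 57289 peaks. Pde4d held 45 of them, Pde4b 23, Pde7b 16, Pde4a 6, Pde3b 6, Pde7a 4 and Pde8a 4. The signal was bulk ATAC-seq, in which the transposase Tn5 cuts open chromatin. All 14 libraries came from bone marrow LT-HSCs of C57BL/6 mice, all kept for 16 h at 37 °C in 3% oxygen and 5% CO2. All were kept with 10% fetal bovine serum. They were young control (10 to 16 weeks, n = 4), aged control (over 80 weeks, n = 5) and aged with the RhoA inhibitor Rhosin at 100 µM, called aged Ri (over 80 weeks, n = 5). Rhosin is a small molecule that keeps the GTPase RhoA from being activated, and here it was added to isolated cells, not given to animals. How many animals stand behind a library is not given in the sources used here, so p-values measure the spread between these libraries.

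Cyclic AMP is made from ATP by adenylyl cyclases, mostly under the control of receptors coupled to G proteins, and acts through protein kinase A, the exchange factors called EPAC and the transcription factor CREB. Phosphodiesterases end the signal by hydrolysing cyclic AMP. The PDE4, PDE7 and PDE8 enzymes are selective for cyclic AMP, while PDE3 enzymes also bind cyclic GMP and are inhibited by it. In blood cells PDE4B is a well-known brake on cyclic-AMP signalling and a target of anti-inflammatory drugs. Many of these genes are long and have several start sites that give long and short forms of the enzyme.

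Most of the peaks lay inside long genes and away from their annotated ends. The Pde4d span (chromosome 13, 108654177 to 109955969) covers 1302 kb, that of Pde4b (chromosome 4, 102087332 to 102607275) 520 kb and that of Pde7b (chromosome 10, 20397052 to 20725078) 328 kb. Of the 104 peaks, 89 overlapped a gene span and 15 lay outside one. Only 6 (5.77%) were within 1 kb of an annotated end, against 24.1% of all peaks. Mean counts per library ran from 6.93 to 96.1 per peak with a median of 16.1, so counting error is large for single peaks. The filter on low counts kept 101 of the 104 peaks, and the other 3 (1 each of Pde4d, Pde3b and Pde7a) were not tested.

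RefSeq promoter windows (GRCm38.p6, the assembly called mm10; 250 bases before a listed start to 50 after it) were found for 5 of the 7 genes, 10 windows in all. The 4 windows that a peak overlapped, at least in part, are shown. In the Pde4b window the start itself (102570060) lay before the first base of the peak (102570101). Capitals mark matches, on either strand, to the CRE core TGACG, part of the cyclic-AMP response element, or to the GC box GGGCGG.
Pde8a, 7:81213015-81213314, plus strand: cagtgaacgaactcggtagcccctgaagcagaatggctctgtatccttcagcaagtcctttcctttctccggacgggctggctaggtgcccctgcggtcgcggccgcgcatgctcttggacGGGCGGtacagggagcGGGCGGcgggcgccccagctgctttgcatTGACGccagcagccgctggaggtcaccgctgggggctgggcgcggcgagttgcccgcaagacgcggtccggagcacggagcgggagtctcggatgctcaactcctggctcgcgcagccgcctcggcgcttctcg
Pde4a, 9:21183851-21184150, plus strand: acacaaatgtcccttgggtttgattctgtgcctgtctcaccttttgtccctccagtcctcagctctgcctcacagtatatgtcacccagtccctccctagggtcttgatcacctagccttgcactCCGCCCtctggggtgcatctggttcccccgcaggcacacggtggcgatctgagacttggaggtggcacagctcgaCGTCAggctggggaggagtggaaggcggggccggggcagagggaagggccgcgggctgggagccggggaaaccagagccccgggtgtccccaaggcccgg
Pde4b, 4:102569810-102570109, plus strand: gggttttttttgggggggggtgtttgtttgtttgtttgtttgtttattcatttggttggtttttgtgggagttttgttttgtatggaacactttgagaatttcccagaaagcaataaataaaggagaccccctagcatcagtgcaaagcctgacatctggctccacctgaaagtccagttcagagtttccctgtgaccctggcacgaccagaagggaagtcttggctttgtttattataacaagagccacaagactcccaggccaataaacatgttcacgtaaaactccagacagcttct
Pde7b, 10:20548279-20548578, minus strand: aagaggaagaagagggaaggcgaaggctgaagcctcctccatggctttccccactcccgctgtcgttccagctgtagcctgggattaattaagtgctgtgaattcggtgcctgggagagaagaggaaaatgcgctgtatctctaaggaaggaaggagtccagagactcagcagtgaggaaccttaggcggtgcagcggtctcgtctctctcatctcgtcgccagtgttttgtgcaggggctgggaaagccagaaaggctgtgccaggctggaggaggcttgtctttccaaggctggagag

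The Pde8a window was rich in G and C (68.7%, against a median of 52.7% over 32851 windows of all genes) and held the CRE core and a pair of GC boxes. The Pde4a window (64.0% G and C) held 1 CRE core and 1 GC box. Over all windows, 20.8% held the CRE core and 35.7% the GC box. The Pde4b and Pde7b windows held neither, nor any of the full CRE TGACGTCA, the AP-1 motif TGAGTCA, the GATA-factor motif AGATAA, the RUNX motif TGTGGT, the ETS motif CCGGAA, the TEAD motif GGAATG or the CArG box. A peak covered all 300 bases of the Pde8a and Pde4a windows, 272 of the Pde7b window and only 9 of the Pde4b window.

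The peak that led to the choice of genes lay outside the Pde4b span, 41090 bp before its first base (chromosome 4, 102045543 to 102046242). It was also 137 bp from the pseudogene Gm12799, and the next protein-coding genes on its other side, Gm12789 and Gm12790, were 55312 and 70438 bp away. Its accessibility, in counts scaled to a common library size (CPM), was 2.22, 7.56, 4.26 and 4.35 in young 1 to 4. In aged 1 to 5 it was 27.3, 18.2, 18.8, 18.5 and 12.0 CPM. In aged Ri 1 to 5 it was 27.1, 41.7, 66.5, 50.7 and 23.4 CPM. All aged and aged Ri libraries were above all young ones, while aged Ri 1 and aged Ri 5 fell below aged 1.

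**Figure D1:**
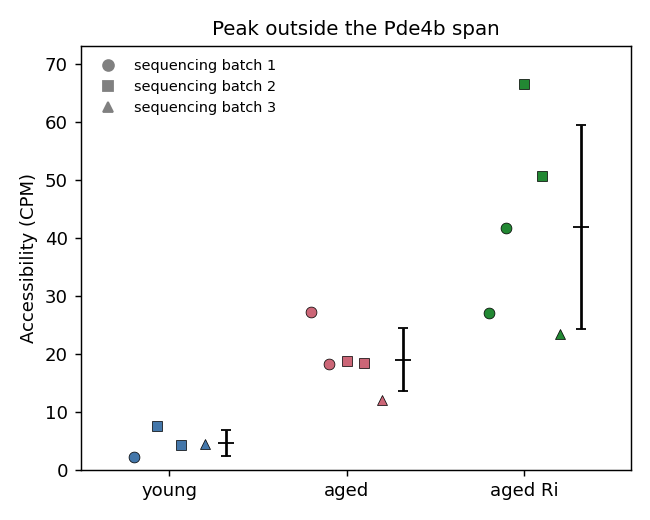
Accessibility (CPM) of the peak 41090 bp before the Pde4b span, 1 point per library; marker shapes show the sequencing batch and the bars the mean ± SD. The young libraries lie between 2.22 and 7.56 CPM, the aged between 12.0 and 27.3 and the aged Ri between 23.4 and 66.5.

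The mean was 4.60 ± 2.21 CPM for young (SD, n = 4), 18.9 ± 5.43 for aged (SD, n = 5) and 41.9 ± 17.6 for aged Ri libraries (SD, n = 5). The fitted log2 difference was 2.02 ± 0.34 (SE) for aged against young, 4.06-fold, and 1.12 ± 0.24 (SE) for aged Ri against aged, 2.17-fold. They add up to 3.14 ± 0.32 (SE) for aged Ri against young, the contrast the genes were chosen on, so no p-value is given for this peak. By size of gain it ranked 3 of 56235 tested peaks in that contrast, 126 in aged against young and 277 in aged Ri against aged. Within sequencing batches 1, 2 and 3, the log2 difference was 2.84, 1.55 and 1.28 for aged against young and 0.57, 1.59 and 0.91 for aged Ri against aged. Bulk libraries cannot tell a wider opening in each cell from a larger number of cells with the site open.

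Accessibility at the rest of Pde4b differed far less between the groups. Summed over the other 22 Pde4b peaks the mean was 241 ± 37.8 CPM for young (SD, n = 4), 287 ± 42.1 for aged (SD, n = 5) and 316 ± 46.0 for aged Ri libraries (SD, n = 5). The outlying peak made up 1.86% of the Pde4b sum in young, 6.17% in aged and 11.7% in aged Ri libraries. The nearest peak on its far side, 46390 bp away and nearest to Gm12789, differed by log2 -0.18 for aged against young and 0.08 for aged Ri against aged. The nearest on the gene's side, 58221 bp away inside Pde4b (102104463 to 102105162), differed by log2 0.42 and 0.57.

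**Figure D2:**
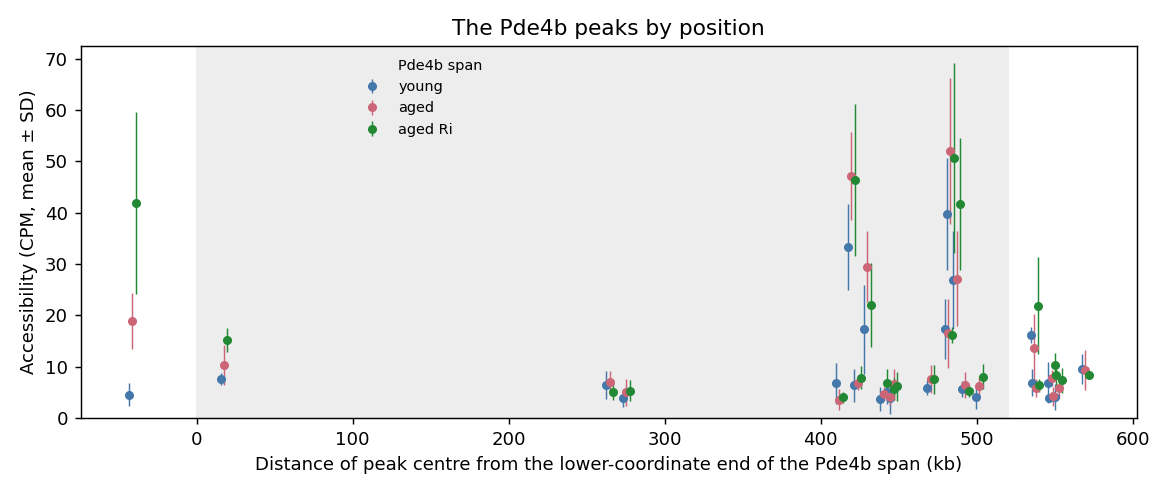
Mean accessibility ± SD (CPM) of the 23 Pde4b peaks in each group, by distance of the peak centre from the lower-coordinate end of the Pde4b span (kb); the shaded band is the span, and the points of a peak are set slightly apart. The groups separate most at the leftmost peak, outside the span, with means of 4.60, 18.9 and 41.9 CPM.

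The Pde4b peak with the most counts lay just past the internal start site whose window is shown above (102570101 to 102570800). Its mean was 39.7 ± 10.9 CPM for young (SD, n = 4), 52.0 ± 14.2 for aged (SD, n = 5) and 50.6 ± 18.4 for aged Ri libraries (SD, n = 5), and the groups overlapped. Neither aged against young (log2 0.32, edgeR adjusted p = 0.457) nor aged Ri against aged (log2 -0.05, edgeR adjusted p = 0.981) passed the threshold of 0.05.

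For ageing, 4 of the 101 tested peaks were called higher (3.96%) and 0 lower in edgeR at an adjusted p under 0.05. Over all 56235 tested peaks 4.45% were called higher and 1.26% lower, so the count is near the background. DESeq2 called 5 higher and 0 lower, where 2109 (3.75%) and 738 of all 56235 peaks were called. Of the 101, 12 had an unadjusted edgeR p under 0.05, against 22.3% of all peaks. The median log2 difference was 0.10, against -0.01 over all peaks, and 62 of 101 were above 0. The 4 were the peak before Pde4b, 2 of Pde4d and 1 of Pde7b. The young libraries also entered the contrast on which the genes were chosen. Without young 1, young 3, aged 1 or aged 3 the count of higher peaks was 2, and without young 4 it was 6.

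Pde4d encodes the phosphodiesterase that is anchored at many sites in the cell through its long forms. Its peak 6540 bp before the span (chromosome 13, 108646938 to 108647637) stood at 19.5, 36.4, 17.0 and 36.3 CPM in young 1 to 4. It stood at 43.3, 47.5, 83.1, 45.9 and 38.3 in aged 1 to 5 and at 48.9, 44.3, 67.5, 48.5 and 43.7 in aged Ri 1 to 5. Every aged library was above every young one, and the aged and aged Ri ranges overlapped. The peak rose by log2 0.90 ± 0.25 (SE) in aged cells (edgeR adjusted p = 0.0253) and differed by -0.03 between aged Ri and aged (edgeR adjusted p = 0.991). Leaving out young 1 or 3, or aged 1, 2 or 3, each ended the ageing call (with edgeR adjusted p-values of 0.0515 to 0.171), as did dropping the batch term (0.0666).

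Deep inside Pde4d (109287208 to 109287907), the peak stood at 9.77, 13.1, 9.94 and 16.0 CPM in young 1 to 4. The aged libraries had 31.3, 30.5, 46.2, 32.2 and 19.1 CPM, and the aged Ri libraries 30.7, 39.2, 52.3, 36.0 and 21.8. Again the young libraries lay below all others. It rose by log2 1.29 ± 0.27 (SE) with age (edgeR adjusted p = 0.00302), a call kept without any 1 library, and differed by 0.17 between aged Ri and aged (edgeR adjusted p = 0.895). Another Pde4d peak (109921519 to 109922218) rested on uneven young libraries, at 9.77, 30.9, 2.84 and 28.5 CPM, against 31.5 to 51.0 in aged and aged Ri libraries together. Its ageing difference was log2 1.06 ± 0.32 (SE, edgeR adjusted p = 0.0504), and DESeq2 called it (adjusted p = 0.0194).

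Pde7b encodes a cyclic-AMP phosphodiesterase insensitive to the classic PDE4 inhibitor rolipram. Its peak inside the span (chromosome 10, 20589893 to 20590592) stood at 6.22, 6.87, 4.26 and 6.77 CPM in young 1 to 4. It stood at 17.6, 14.6, 20.7, 13.7 and 7.57 in aged 1 to 5, and at 16.7, 16.2, 22.3, 14.02 and 7.68 in aged Ri 1 to 5. Aged 5 and aged Ri 5, both of batch 3, were the lowest of their groups and stood just above the young range. The peak rose by log2 1.12 ± 0.31 (SE) with age (edgeR adjusted p = 0.0278). Leaving out young 1, 2 or 3, or aged 1 or 3, each ended this call (with edgeR adjusted p-values of 0.0647 to 0.167), as did offsets that remove trends against mean abundance (0.0510).

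**Figure D3:**
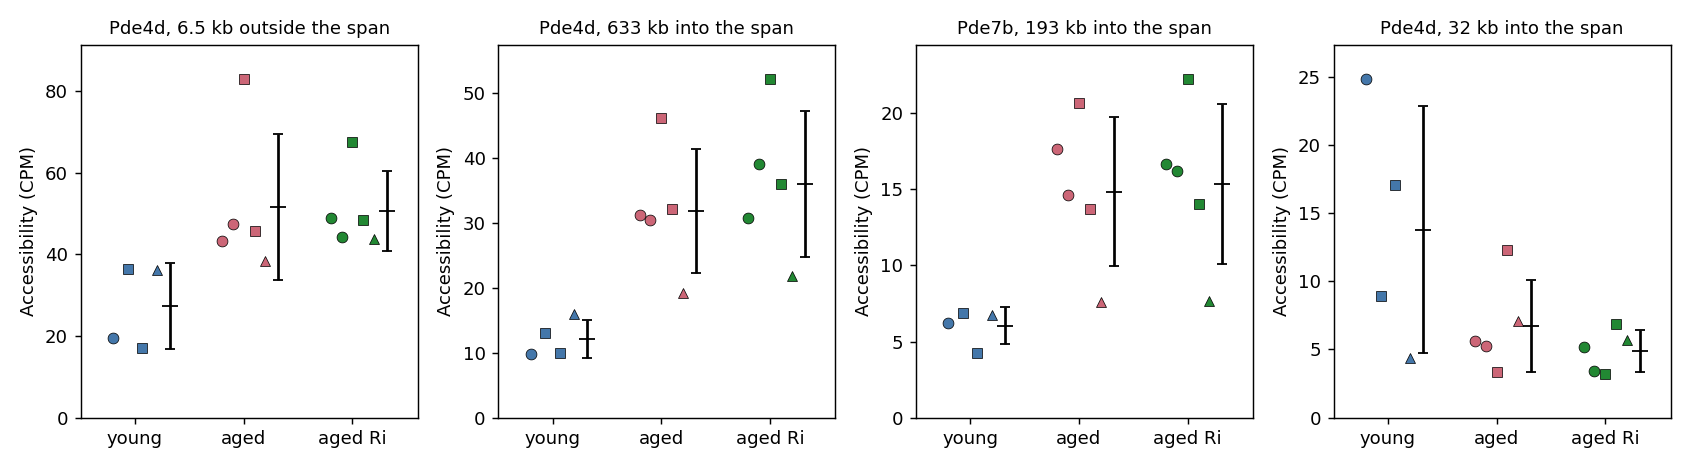
Accessibility (CPM) per library at 4 peaks of Pde4d and Pde7b, with mean ± SD; circles, squares and triangles are sequencing batches 1, 2 and 3. In the first 3 panels every young library lies below every aged one; in the last, a Pde4d peak called lower in aged Ri against young, young 1 (24.9) and young 3 (17.0) are the highest and the groups overlap.

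These 3 gains were small in batch 3. The log2 difference between aged and young in batches 1, 2 and 3 was 1.17, 1.27 and 0.08 at the first Pde4d peak, 1.56, 1.67 and 0.25 at the second, and 1.24, 1.47 and 0.14 at the Pde7b peak. Batch 3 holds 1 library of each group. The share of a library's counts at gene ends moved with age too, at 47.0% to 50.7% in young, 38.8% to 49.6% in aged and 35.9% to 46.8% in aged Ri libraries. With that share as a covariate 1 of the 4 peaks called higher with age was still called, the one before Pde4b. That peak led to the choice of genes, which used the young libraries, so nothing is read from its call. With the covariate, the log2 difference of the 3 others was 0.44 and 1.04 at the first and second Pde4d peaks and 0.74 at the Pde7b peak (edgeR adjusted p from 0.190 to 0.678). Summed accessibility at the ends of B-cell marker genes, of which Cd79a and Cd79b (2 of 6) had a peak there, was 47.9 to 89.7 CPM in young, 28.1 to 50.6 in aged and 22.9 to 45.5 in aged Ri libraries. The young and aged ranges overlapped and the young and aged Ri ranges did not, and the part of such cells in the differences was not tested.

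No Pde4a, Pde3b, Pde7a or Pde8a peak was called with age. Pde3b encodes the cyclic-GMP-inhibited enzyme known from insulin signalling in fat cells. Its peak at the lower end of the span (chromosome 7, 114415872 to 114416571) had the smallest p of that gene, at 10.7 ± 4.43 (SD, n = 4) CPM in young and 5.92 ± 3.62 (SD, n = 5) in aged libraries (log2 -0.91, edgeR adjusted p = 0.140). At the Pde8a start (81212631 to 81213330), whose enzyme has a high affinity for cyclic AMP, the mean was 30.9 ± 10.1 CPM for young (SD, n = 4), 26.3 ± 4.19 for aged (SD, n = 5) and 30.1 ± 5.72 for aged Ri libraries (SD, n = 5). At an internal listed start of Pde4a (chromosome 9, 21183638 to 21184337) it was 20.5 ± 5.09, 19.1 ± 4.69 and 17.8 ± 3.44 CPM (SD) in the same order. No peak overlapped the Pde4a window at the lower end of the span (21165464 to 21165763). At the Pde7a end (chromosome 3, 19311013 to 19311712) the libraries were uneven, with 55.6 CPM in young 4 and 45.4 in aged 5, both of batch 3, against 14.1 to 28.2 in the other young and aged libraries. These peaks at ends and listed starts overlapped between all groups.

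For Rhosin, edgeR called 1 of the 101 tested peaks higher in aged Ri than in aged libraries (0.990%), the one before Pde4b, and 0 lower. That peak led to the choice of genes, which used the aged Ri libraries, so nothing is read from its call here. Of all tested peaks 0.375% were called higher and 0.0711% lower. DESeq2 also called 1 higher and 0 lower, where 216 (0.384%) and 44 of all 56235 peaks were called. Of the 101, 10 had an unadjusted edgeR p under 0.05, against 10.2% of all. The median log2 difference was 0.07, against -0.02 over all peaks. Dropping the batch term, or leaving out aged 2, 3 or 4 or aged Ri 2 or 3, each ended the call, with a log2 difference between 0.97 and 1.31 under every alternative.

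Deviations from group means correlated between same-numbered aged and aged Ri libraries (r from 0.14 to 0.65). Libraries of different numbers had r from -0.45 to 0.34, so the 2 ranges overlapped. With the library number as a block 5 of 95 tested peaks were called higher and 0 lower. The 5 include the peak before Pde4b, which led to the choice of genes, and nothing is read from its call. Over all 51901 peaks tested in that fit, 2.89% were called higher and 1.53% lower. Besides the peak before Pde4b (log2 1.15 ± 0.19 SE), the block called 3 more Pde4b peaks and 1 of Pde7b, named here after their values were seen. Pde4b was picked for its gain in aged Ri against young, and its peak at 102635793 was also called in that contrast. The aged Ri libraries thus entered the choice, so nothing is read from the p-values of these 3 Pde4b peaks or from counts that hold them. The Pde4b peak 28518 bp past the span (102635793 to 102636492) stood at 4.81, 6.44, 3.76, 1.37 and 4.90 CPM in aged 1 to 5. In aged Ri 1 to 5 it stood at 12.0, 6.81, 6.46, 7.91 and 9.30, every one above every aged library. It differed by log2 0.99 ± 0.32 (SE) with the block (edgeR adjusted p = 0.0493) and by 1.00 without it (edgeR adjusted p = 0.166).

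The Pde4b peak inside the span at 102574100 to 102574799 had 32.1, 24.6, 32.3, 34.9 and 12.0 CPM in aged 1 to 5 and 37.5, 44.3, 60.4, 41.7 and 24.7 in aged Ri 1 to 5. Each aged Ri library was above the aged one of its number, while the groups overlapped. Its log2 difference was 0.66 ± 0.18 (SE) with the block (edgeR adjusted p = 0.0171) and 0.65 without it (edgeR adjusted p = 0.203). The Pde4b peak at 102623991 to 102624690, past the span, differed by log2 0.65 ± 0.20 (SE) with the block (edgeR adjusted p = 0.0424) and by 0.63 without it (edgeR adjusted p = 0.306). The Pde7b peak at 20737045 to 20737744, 11967 bp outside the span, had 11.7 to 20.1 CPM in aged and 20.7 to 26.6 in aged Ri libraries, with no overlap. It differed by log2 0.61 ± 0.19 (SE) with the block (edgeR adjusted p = 0.0457) and by 0.63 without it (edgeR adjusted p = 0.230).

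**Figure D4:**
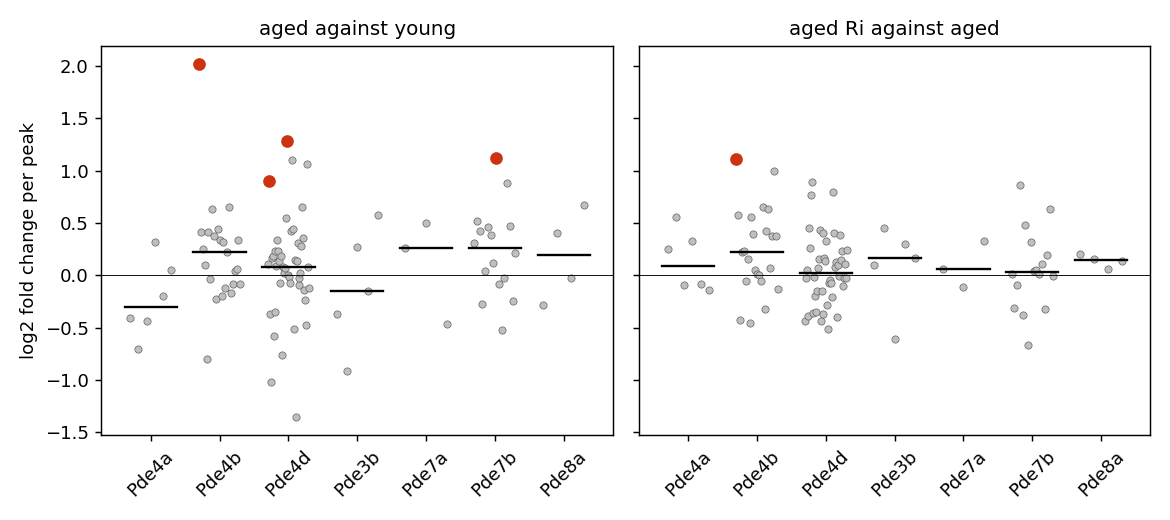
Log2 fold change of each of the 101 tested peaks by gene, for aged against young (left) and aged Ri against aged (right); red points were called by edgeR without the block and black lines are the medians per gene. The called points are 4 on the left and 1 on the right, and the highest in both panels is the peak before Pde4b.

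Aged Ri against young chose the genes, so its counts are a description from which nothing is read. There 9 of the 101 tested peaks were called higher and 1 lower, where 7.90% and 3.56% of all tested peaks were called. Pde4b held 4 of the higher ones, Pde4d 3 and Pde7b 2. Inside Pde4b, the peak at 102104463 to 102105162 went from 7.62 ± 1.20 (SD, n = 4) CPM in young to 15.2 ± 2.34 (SD, n = 5) in aged Ri libraries, with 10.4 ± 3.95 (SD, n = 5) in aged ones. The lower one was the Pde4d peak at 108686454 to 108687153, at 24.9, 8.93, 17.0 and 4.35 CPM in young 1 to 4 and 3.23 to 6.83 in aged Ri libraries (log2 -1.41).

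Summed over all peaks of a gene, none of the 7 genes passed in aged against young or in aged Ri against aged. Over all 16712 gene sums, 4.79% were called higher and 0.814% lower with age, and 0.114% and 0.0120% with Rhosin. In DESeq2 the count was also 0 in both comparisons, where 4.83% of all gene sums were called higher with age and 0.257% with Rhosin. With age 3 of the 7 had an unadjusted edgeR p under 0.05, against 23.0% of all, and with Rhosin 0, against 8.59%. The 3 were the Pde4b, Pde7b and Pde4d sums. The Pde4b sum holds the peak that led to the choice of genes, so nothing is read from that count. The Pde4b sum was 223 CPM in young, 308 in aged and 358 in aged Ri libraries (means, scaled over the counts in peaks given to genes). The sum without the outlying peak, given above, was scaled over all peaks, so these levels cannot be set beside it. The ageing difference of the Pde4b sum was log2 0.40 ± 0.13 (SE, edgeR adjusted p = 0.0596), which passed without young 4 (0.0165) or aged 5 (0.0316). The Pde4b sum holds the peak that led to the choice of genes, which used the young libraries, so nothing is read from these p-values. The Pde7b sum had means of 119, 170 and 183 CPM, with an ageing difference of log2 0.43 ± 0.15 (SE, edgeR adjusted p = 0.0762), which passed without young 4 (0.0131) or aged 5 (0.0320). Pde4d differed by log2 0.29 ± 0.13 (SE, edgeR adjusted p = 0.170), and the other 4 sums by -0.07 to 0.14. In aged Ri against young, the contrast that chose the genes, the Pde4b and Pde7b sums were called higher and 0 lower, where 8.95% and 2.86% of all gene sums were called. This too is a description, since the Pde4b sum holds the peak that led to the choice. With Rhosin the 7 sums differed by log2 0.05 to 0.23 (edgeR adjusted p from 0.627 to 0.974). The 0.23 and the 0.627 belong to the Pde4b sum, so nothing is read from them either.

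**Figure D5:**
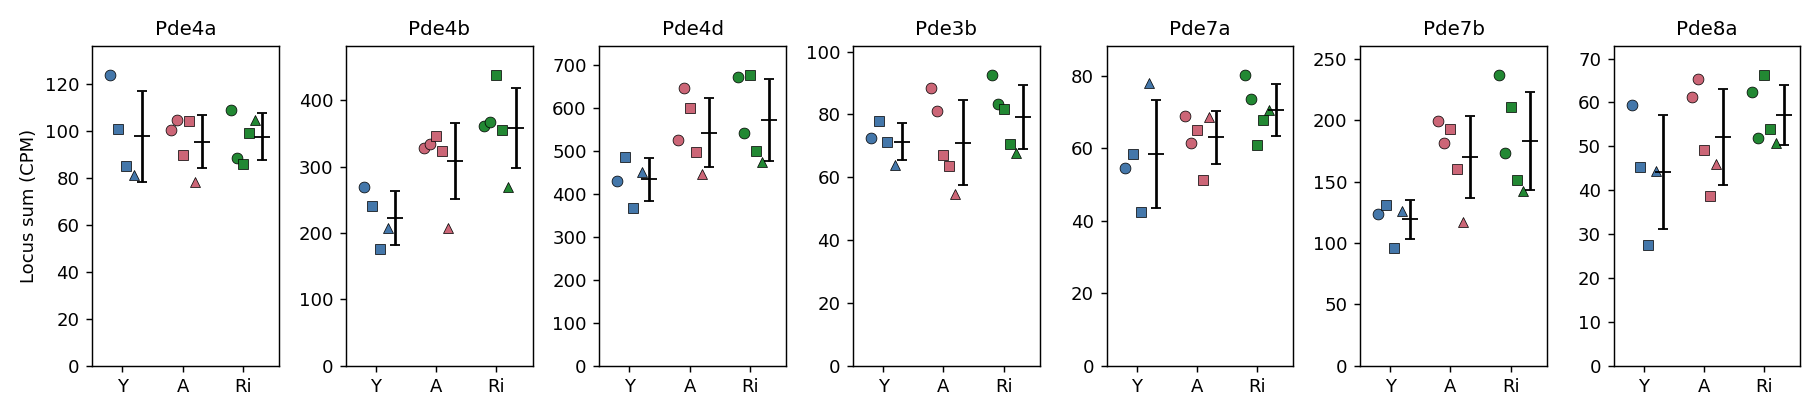
Accessibility summed over all peaks of each gene (CPM), 1 point per library for young (Y), aged (A) and aged Ri (Ri), with mean ± SD; circles, squares and triangles are sequencing batches 1, 2 and 3. In the Pde4b panel aged 5 (207 CPM) lies among the young libraries and apart from the other aged ones.

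The other genes of the pathway, 60 genes listed by role, had 310 peaks, of which 303 were tested. With age 7 were called higher (2.31%) and 7 lower (2.31%), against 4.45% and 1.26% of all tested peaks, with a median log2 difference of -0.03. Of the cyclases, which make cyclic AMP, a peak inside Adcy9 rose from a mean of 24.5 to 52.5 CPM (edgeR adjusted p = 0.00211). Of the EPAC genes, whose products activate Rap GTPases on binding cyclic AMP, a peak inside Rapgef4 rose 2.83-fold (edgeR adjusted p = 0.00341) and one at an end of Rapgef3 fell by 1.40 on the log2 scale (edgeR adjusted p = 0.0210). A peak near Adrb1, the beta-1 adrenergic receptor, rose 2.88-fold from a low mean of 2.59 to 8.35 CPM (edgeR adjusted p = 0.0112). Among the 11 other phosphodiesterases 2 peaks rose (Pde11a and Pde3a) and 2 fell, 1 of them inside Pde10a (log2 -1.27, edgeR adjusted p = 0.00847). With Rhosin 0 of the 303 were called higher and 1 lower, inside Akap13, which encodes an anchor of protein kinase A that also activates RhoA (log2 -1.18, edgeR adjusted p = 0.0499). Of all tested peaks 0.375% and 0.0711% were called higher and lower there. The Akap13 peak had low means, 13.7 ± 4.43 CPM in aged (SD, n = 5) and 5.97 ± 1.22 in aged Ri libraries (SD, n = 5). Its adjusted p lay just under the threshold.

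Peaks of other genes that ran most like the one before Pde4b, by Pearson's r of batch-centred log2 CPM over the 14 libraries, lay inside Jam2 (r = 0.979), near Lmcd1 (0.976) and Lca5 (0.972), and inside Mocs1 (0.971) and Tmtc2 (0.968). These are the highest from 25902 peaks compared, taking 1 per gene and leaving out peaks without a protein-coding gene within 50 kb. All points share libraries and depth, so no test is given. At Jam2, which encodes a junctional adhesion molecule, the means were 5.23, 12.9 and 26.1 CPM in young, aged and aged Ri libraries. Among the phosphodiesterase peaks the most alike were those at 109287208 in Pde4d (r = 0.899) and 20589893 in Pde7b (0.844).

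The 50 kb limit left the peak before Pde4b in, at 41090 bp. The members nearest to the limit were a Pde7b peak at 48633 bp and a Pde4b peak at 49460 bp, with log2 differences for aged Ri against young of 0.21 and -0.21. Just outside it were a Pde7b peak at 51767 bp (0.21) and a Pde7a peak at 55599 bp (0.61). For aged against young these differed by log2 0.33 and 1.43, and for aged Ri against aged by -0.12 and -0.82.

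The shallowest library, young 3, held 765533 counts and the deepest, aged Ri 3, held 3176246. Of 12 stem-cell marker genes, 10 had a peak at an annotated end (not Slamf1 or Gata2), with summed levels of 274 to 434 CPM in young, 296 to 392 in aged and 239 to 364 in aged Ri libraries. Of 8 T and NK cell marker genes 4 had one, at 73.4 to 124, 63.8 to 130 and 63.1 to 108 CPM in the same order. Of 8 myeloid marker genes 6 had one, at 39.0 to 55.3, 42.6 to 61.7 and 31.4 to 49.7 CPM. Of 6 erythroid genes 3 had one, at 43.8 to 53.9, 47.2 to 63.0 and 33.9 to 61.6 CPM, and of 7 endothelial and stromal genes 4, at 63.6 to 88.6, 75.1 to 97.5 and 69.8 to 94.9 CPM. The ranges of the 3 groups overlapped for these 5 lists, unlike those of the B-cell genes above, and their part in the differences was not tested.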

How the data were processed

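The authors deposited raw counts per consensus peak (700 bp, mm10) for 14 libraries. SAMtools 1.14, R 4.2.0 and featureCounts were used, per the submitters' processing notes; the aligner, peak caller, duplicate handling and Tn5 shift are not given in the sources used here. Libraries were grouped by the labels. Deposited peak positions were joined to 21883 RefSeq protein-coding spans; symbols matched for 7 of 7 genes. Differences were tested with edgeR 4.0.16 in R 4.3.3 (filterByExpr, TMM, robust quasi-likelihood, group and sequencing batch as terms, all 14 libraries) on all peaks and on sums per gene, with Benjamini-Hochberg adjustment over all features and a threshold of 0.05. The code was tested on simulated data. Log2 CPM used a prior count of 2.

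The genes and lists were chosen with earlier results of these data known. Peaks named were those called, and per gene the deepest, the deepest at an end and that of smallest p per comparison; those at listed starts and those called with the block were added after their values were seen. Alternatives were DESeq2 1.42.0, no filter, no batch term, a replicate block, trend offsets, the gene-end share as covariate, a 10 kb limit and each library left out. Same-numbered aged and aged Ri libraries deviated together (r of deviations from group means 0.14 to 0.65 in all 5 pairs) and share a batch. For different numbers r ran from -0.45 to 0.34, which overlaps that range. Per the labels' protocols Rhosin was added to an aged cell sample. No 2 libraries of a group differed by as little as sampling noise (chi-square per peak at least 1.58).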

Additional observations from a re-analysis of the deposited data

Results flagged for a closer look

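Of 105 sets of 4 or 5 libraries of a group checked for a library far from the rest, 4 had one, where chance gives about 1 in 20. At the Pde4d peak before the span (108646938), aged 3 stood at 83.1 CPM with the next aged library at 47.5, and aged Ri 3 at 67.5 with the next at 48.9. At the Pde7a end peak (19311013), aged 5 stood at 45.4 CPM, with the next at 20.5. The Pde4b sum of aged 5 was 207 CPM, with the next aged library at 324.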

How the results depend on the processing

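Without a batch term, 0 peaks were called higher with Rhosin (1 in the main result); likewise 0 with the 10 kb limit, which leaves out the peak before Pde4b, and 0 with that peak set aside, an alternative chosen after seeing the data. With the replicate block, 5 were called higher with Rhosin, among them the peak before Pde4b and further Pde4b peaks, and nothing is read from the Pde4b calls. In aged Ri against young it called 5 higher and 0 lower, where 2783 and 1034 of all 55144 tested peaks were called. With age it called 2 gene sums (Pde4b and Pde7b, edgeR adjusted p = 0.0117 and 0.0101), where 1255 of all 16007 were higher and 861 lower. The Pde4b sum holds the peak that led to the choice, so nothing is read from its call. Young numbers do not pair with the others (r from -0.28 to 0.07 with aged and from -0.20 to 0.07 with aged Ri). In comparisons with young, libraries numbered 1 and 3 share a batch, those numbered 2 and 4 do not, and number 5 has no young library. The block fit held no batch term, so its calls against young are not those of paired libraries. With the gene-end share as covariate, 1 peak was called higher with age, the one before Pde4b, from whose call nothing is read. That covariate gave 2 higher and 0 lower in aged Ri against young, and 0 gene sums there. Over all peaks it called 144 higher and 1 lower with age, where the main result had 2504 and 710. Trend offsets called 1 peak lower with age, and 2299 higher and 1119 lower over all. Without a batch term all peaks gave 1594 and 214 with age and 48 and 3 with Rhosin, where the main result had 211 and 40; the block gave 1498 and 794. The cause was not tested. With each library left out, calls ranged from 2 to 6 higher, 0 to 1 lower and 0 to 2 gene sums with age, from 0 to 1 higher with Rhosin, and from 2 to 11 higher, 0 to 1 lower and 1 to 3 gene sums in aged Ri against young, where 2 were higher without aged Ri 3, 3 without young 1, 5 without young 2 or 3, and 0 lower without young 1 or 3 or aged Ri 1, 2 or 3. With age 1 peak was lower without young 4, aged 1 or aged 4. No called value changed sign under any of these. Depth limits single peaks, whose mean counts had a median of 16.1 per library.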
